A study of Mus musculus with 52 samples.

Results

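The comparison described here is that of brain RNA from Tug1-/- mice with brain RNA from wild-type mice. It comprises every gene listed for brain in a table that stacks several tissues, which is 23716 genes of 202292 gene rows over the 8 tissues deposited. Wild-type mice carried the intact Tug1 locus. Tug1-/- mice were homozygous for a lacZ knock-in, in which the Tug1 promoter drives the reporter and the transcribed sequence after exon 1 is missing. The brain data were re-analysed from an existing dataset, and the libraries behind them are not among the 52 samples labelled in the series. The labels therefore give neither their number nor the sex, age or strain of the mice. The labelled samples came from a mixed C57BL/6J and 129S6 background, apart from 6 testes samples of crosses with Cast/EiJ, and whether the brain mice shared it is not known.

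Tug1 is a long noncoding RNA gene that is transcribed in many tissues, and its RNA is found in the nucleus and the cytoplasm. Long noncoding RNA loci can act on neighbouring genes of the same chromosome through their DNA or the act of transcription, or on distant genes through the RNA itself. In the nervous system Tug1 was first described in the developing retina, as a transcript raised by taurine. Its promoter faces that of Morc2a, which lies on the opposite strand.

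Levels are in TPM, a share of all transcripts that is corrected for gene length, and each is the authors' mean over the libraries of a genotype. A ratio below is the log2 of the Tug1-/- mean over the wild-type mean after 0.1 TPM was added to both, which understates the ratio of genes at low levels. The deposited table holds no value of a single library, so neither an SD nor a test between mice could be computed, and no difference below has been set against the spread between animals. A 95% counting interval is given for the main genes, calculated from the mean normalized read count as if each genotype were 1 library. It covers counting error only, and leaves out the spread between mice. Genes were compared where the 2 means averaged at least 1 TPM and the mean normalized count was at least 50, which held for 12995 genes (54.8%).

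The labelled tissue was checked against its markers. Transcripts that define neurons (Snap25, 1532 and 1452 TPM in wild-type brain and Tug1-/-) and astrocytes (Aldoc, 1094 and 1118 TPM) were abundant in both means. Top2a, which is expressed in dividing cells, stood at 1.04 and 1.33 TPM. The Y-linked gene Ddx3y was at 81.5 TPM in wild-type brain and 79.9 TPM in Tug1-/-, and Xist, the RNA that coats the inactive X chromosome of females, was at 0.0475 and 0.0556 TPM. Normalized counts over all genes summed to 17573743 in brain and to between 38666994 and 48341823 in the 6 tissues of the same table, while the number of brain libraries is not known.

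Tug1 itself was at 57.03 TPM in wild-type brain and at 0.215 TPM in Tug1-/- brain, 0.377% of the wild-type level. The gene spans chr11:3639785-3649673 of GRCm38 on the minus strand. Its log2 ratio was -7.50, with a counting interval from -8.11 to -6.90.

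Apart from Tug1, the brain transcriptomes of the 2 genotypes were close. The median log2 ratio over the 12995 genes was -0.02, and 90% of the genes lay between -0.20 and 0.14. A ratio of 1.5-fold or more higher in Tug1-/- was found for 26 genes (0.200%), and 1.5-fold or more lower for 32 genes (0.246%), Tug1 included. Of these 58 genes, 39 had a mean normalized count under 200, and 4 had one of 1000 or more. The counting interval lay wholly beyond the 1.5-fold limit for 7 genes that were higher and 9 that were lower. The genes that passed the limit by least were Tmem72, at 0.59, and the long noncoding RNA 4930480K23Rik, at -0.60, and Eps8l2, at -0.58, came nearest to it without passing.

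**Figure D1:**
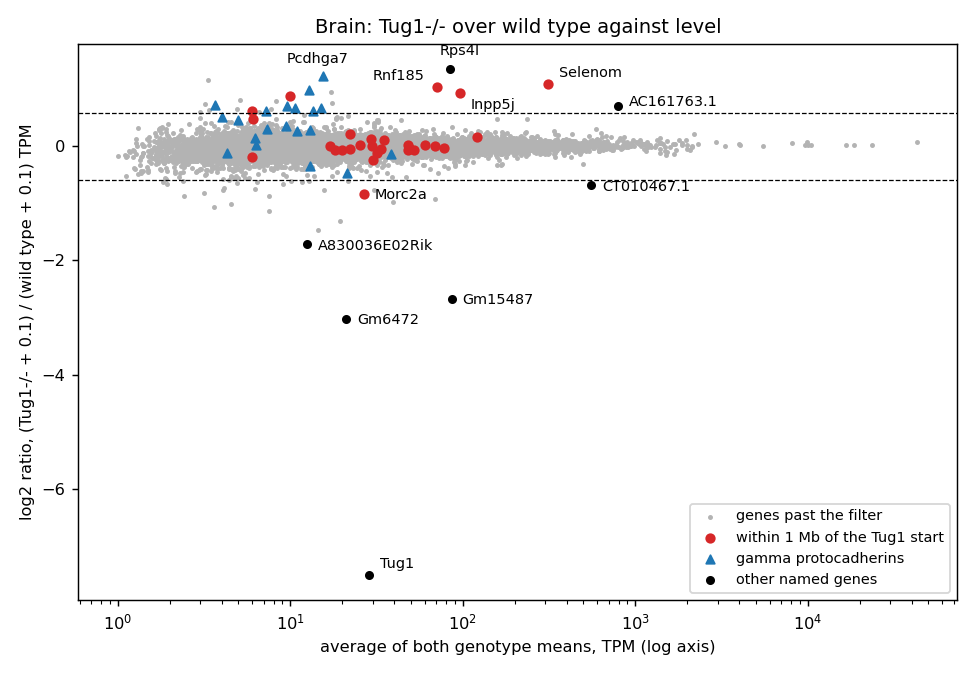
Log2 ratio of Tug1-/- over wild-type brain (vertical axis) against the average of the 2 genotype means in TPM (horizontal log axis), 1 point per gene past the filter, with dashed lines at 1.5-fold. Genes within 1 Mb of the Tug1 start are red circles, gamma protocadherins blue triangles and other named genes black. Nearly all of the 12995 genes lie between the lines, while Tug1 stands alone at -7.50 and Selenom, Rnf185, Inpp5j, Rps4l and AC161763.1 are among the more abundant genes above the upper line.

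The first question was whether genes beside the deleted locus differed. Of 48 genes with a start within 1 Mb of the Tug1 start, Tug1 left out, 28 passed the filter. Among these, 5 were 1.5-fold or more higher (17.9%, beside 0.200% of all genes) and 1 was 1.5-fold or more lower (3.57%, beside 0.246%). The 5 higher genes lay next to each other, between 135 and 197 kb from the Tug1 start and beyond its 3' end. Of the 14 genes that start on that side, Morc2a among them, 5 were higher, and of the 14 on the other side none was past 1.5-fold, the ratios running from -0.24 to 0.16. At a narrower limit of 0.32 on the log2 scale, 0.677% of all genes were higher and 1.42% lower, and in the window these counts were 6 and 1.

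Selenom, which encodes selenoprotein M, a thioredoxin-like protein of the endoplasmic reticulum, had the largest ratio of the window. Its mean was 199 TPM in wild-type brain and 424 TPM in Tug1-/-, a 2.13-fold ratio with a log2 value of 1.09 and a counting interval from 0.98 to 1.20. It was also the most abundant gene of the window in both genotypes. The gene lies at chr11:3514684-3517351 on the plus strand.

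Rnf185, which encodes a ubiquitin ligase of the endoplasmic reticulum membrane, stood at 46.7 TPM in wild-type brain and 95.2 TPM in Tug1-/-. The log2 ratio was 1.03 (counting interval 0.87 to 1.18). It spans chr11:3415982-3452363 on the minus strand, and the noncoding transcript 8430429K09Rik begins 2 bases away on the opposite strand. The level of 8430429K09Rik was 7.03 TPM in wild-type brain and 12.96 TPM in Tug1-/-, a log2 ratio of 0.87 that rests on a mean normalized count of 98.9.

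Inpp5j, which encodes a phosphatase that removes the 5-phosphate of inositol lipids, was at 65.8 TPM in wild-type brain and 126 TPM in Tug1-/-. Its log2 ratio of 0.93 had the narrowest counting interval of the higher genes, from 0.84 to 1.03. Pla2g3, a secreted phospholipase A2 whose gene span overlaps that of Inpp5j on the opposite strand, was at 4.69 and 7.27 TPM, with a log2 ratio of 0.62 (0.23 to 1.01). With a pseudocount of 1 TPM its ratio was 0.54, short of 1.5-fold. Between this group and Tug1 lies Smtn, which encodes the cytoskeletal protein smoothelin of smooth muscle. Smtn was at 5.04 and 7.08 TPM (log2 ratio 0.48, interval 0.09 to 0.87), and did not pass the 1.5-fold limit. Gm11946, on the other strand within the Smtn span, was near the detection limit in both means (0.0484 and 0.155 TPM). Whether the brain reads were counted by strand is not known, so reads of such overlapping pairs cannot be told apart.

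The single lower gene of the window was Morc2a, which encodes an ATPase that works with the HUSH complex in silencing repeated DNA. It was at 34.2 TPM in wild-type brain and 19.2 TPM in Tug1-/-, a log2 ratio of -0.83 (interval -0.98 to -0.69). Morc2a starts 0.179 kb from the Tug1 start, and the 2 gene spans share 180 bases at their 5' ends. Reads from that stretch may belong to either gene.

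On both sides of this block the ratios were close to 0. Limk2, a kinase that phosphorylates cofilin, lies 240 kb from the Tug1 start beyond Rnf185 and was at 69.0 and 69.3 TPM (log2 ratio 0.00). On the Morc2a side the nearest gene past the filter was Osbp2, an oxysterol-binding protein, at 49.0 and 46.9 TPM (log2 ratio -0.06). The 21 window genes within this narrower limit had a median log2 ratio of -0.03. Farther along chromosome 11, the 41 genes between 1 and 5 Mb from Tug1 and the 41 between 5 and 20 Mb each had a median of -0.04. None was past 1.5-fold, a count that the shares over all genes (0.200% higher and 0.246% lower) also give for lists of this size.

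**Figure D2:**
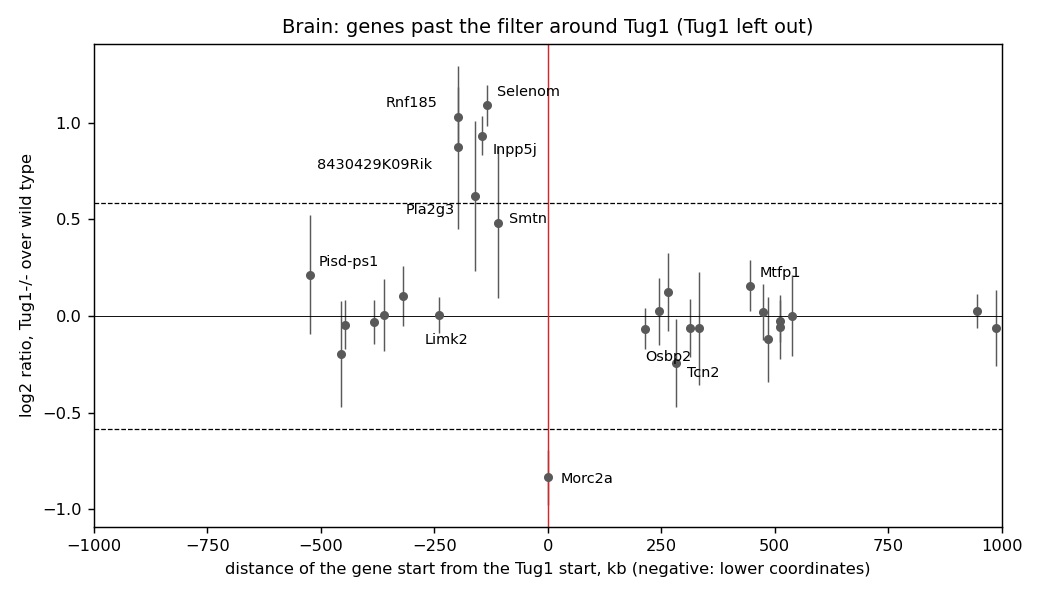
Log2 ratio of Tug1-/- over wild-type brain for the 28 genes past the filter within 1 Mb of Tug1, placed by the distance of their start from the Tug1 start in kb (red line). Bars are 95% counting intervals for 1 library per genotype, and dashed lines mark 1.5-fold. The 5 higher genes stand together between 135 and 197 kb on the left, Morc2a is at the Tug1 start, and the genes on the right lie near 0.

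The sequences before the starts of Selenom and Rnf185 are shown because these were the window genes with the largest ratios and lie on opposite strands. Each is the 250 bases upstream of the RefSeq start in GRCm38.p6, written 5' to 3' on the strand of the gene, with CG dinucleotides in capitals. The Selenom window is chr11:3514434-3514683 on the plus strand and ends at the start that the table lists. The Rnf185 window is chr11:3452957-3453206 on the minus strand, and its RefSeq start lies 593 bases outside the listed gene span.
Selenom: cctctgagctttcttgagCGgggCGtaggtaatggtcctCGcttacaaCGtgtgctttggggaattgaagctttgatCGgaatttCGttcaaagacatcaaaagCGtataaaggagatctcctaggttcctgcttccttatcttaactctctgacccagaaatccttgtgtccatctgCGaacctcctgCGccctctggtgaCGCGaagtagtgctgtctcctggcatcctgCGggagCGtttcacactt
Rnf185: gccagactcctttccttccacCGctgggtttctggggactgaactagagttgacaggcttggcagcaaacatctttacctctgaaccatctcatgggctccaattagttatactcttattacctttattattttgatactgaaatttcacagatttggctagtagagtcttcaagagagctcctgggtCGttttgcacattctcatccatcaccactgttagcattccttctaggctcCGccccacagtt
The Rnf185 window lies inside the span of 8430429K09Rik (chr11:3452365-3479831) and not next to the listed Rnf185 start. Its letters therefore do not describe the stretch before that listed start. The 2 windows differ in their number of CG dinucleotides. Selenom has 13 CG dinucleotides and Rnf185 has 3, against a median of 6 over 32851 RefSeq promoter windows of the same length, of which 31.5% have at least as many as Selenom and 71.0% at least as many as Rnf185. Both strands were searched for 3 promoter elements. The GC box, spelled GGGCGG and overlapping the CG count, was found in Rnf185 and in 32.7% of all windows, and CCAAT was found in Rnf185 and in 33.8%. TATAAA was found in Selenom and in 12.4%. These matches describe letters and were not tested as binding sites.

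The families and partners of the proteins encoded by these neighbours were listed with earlier results of these data known. At the shares over all genes (0.200% higher and 0.246% lower) lists this short hold few or no genes past 1.5-fold, so nothing is read from the absence of a second one. Of 18 selenoprotein genes past the filter, Selenom alone was past the limit, and Selenow, the most abundant, was at 1361 and 1420 TPM (log2 ratio 0.06). Among 14 genes of the endoplasmic reticulum ubiquitin system Rnf185 alone was past it, and its close paralog Rnf5 was at 64.5 and 59.7 TPM (-0.11). Of 11 inositol 5-phosphatases, Inpp5j was past the limit and Synj1 (synaptojanin 1, which acts in synaptic vesicle recycling) was at 245 and 239 TPM (-0.03). Among 8 phospholipase A2 genes Pla2g3 was past it, while the next largest in size was Pla2g4e, at 5.33 and 4.23 TPM (-0.33). For the HUSH partners and MORC paralogs, 9 genes passed the filter and Morc2a alone was past 1.5-fold, with the H3K9 methyltransferase gene Setdb1 at 27.2 and 27.6 TPM (0.02).

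Outside the window, 51 genes were past 1.5-fold, 21 higher and 30 lower. Among them were 9 clustered protocadherins, all higher, of 51 past the filter (17.6%, beside 0.200% of all genes higher). There were also 9 pseudogenes of several annotation classes, of which 8 were lower. Of all genes 0.246% were lower, and the share for processed pseudogenes is given below with their counts. The clustered protocadherins are cell-surface proteins whose combinations give neurons an identity and by which their branches avoid each other. Their genes lie in 3 clusters, alpha, beta and gamma, on chromosome 18. Each alpha or gamma gene supplies a variable exon that is joined to constant exons shared by its cluster, so reads of the shared exons cannot be given to 1 gene.

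In the gamma cluster, 20 of 22 genes passed the filter and 8 of them were 1.5-fold or more higher (40.0%, beside 0.200% of all genes), with none lower. The 11 genes of subgroup A past the filter all lay above the 95th percentile of brain genes, 0.14, which 5.00% of genes exceed. Their median log2 ratio was 0.61, and they ranged from 0.27 to 1.23. Pcdhga7 had the largest, at 9.15 TPM in wild-type brain and 21.7 TPM in Tug1-/- (log2 ratio 1.23, interval 0.972 to 1.497). Pcdhga12 followed, at 8.65 and 17.1 TPM (0.97, interval 0.74 to 1.21). The 6 genes of subgroup B were spread from -0.12 to 0.71, and Pcdhgb5, at 2.75 and 4.58 TPM, was the one past the limit.

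The 3 C-type gamma genes, which sit at the end of the cluster nearest the constant exons, had ratios below 0. Pcdhgc3 was at 24.8 TPM in wild-type brain and 17.9 TPM in Tug1-/- (log2 ratio -0.47, interval -0.64 to -0.30), and Pcdhgc4 was at 14.5 and 11.4 TPM (-0.35, -0.56 to -0.13). Pcdhgc5, the most abundant gamma gene, was at 40.1 and 36.4 TPM (-0.14). Summed over all listed genes, subgroup A came to 90.3 TPM in wild-type brain and 144 TPM in Tug1-/-, and the C types to 79.4 and 65.7 TPM. The long noncoding RNA 3222401L13Rik, which ends 51 bases before the Pcdhga1 span, was at 2.02 and 4.65 TPM (log2 ratio 1.17, interval 0.66 to 1.67).

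The other clusters differed less. The 10 alpha genes past the filter had a median log2 ratio of 0.00 and ranged from -0.16 to 0.16, and their summed levels over the listed genes were 56.3 and 56.2 TPM. The 21 beta genes had a median of 0.01 with a wider range, from -0.57 (Pcdhb21, 4.87 and 3.25 TPM) to 0.59 (Pcdhb6, 5.21 and 7.91 TPM). Pcdhb6 was the single beta gene past the limit. Of the beta genes, 8 lay above the 95th percentile of all genes and 4 below the 5th.

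**Figure D3:**
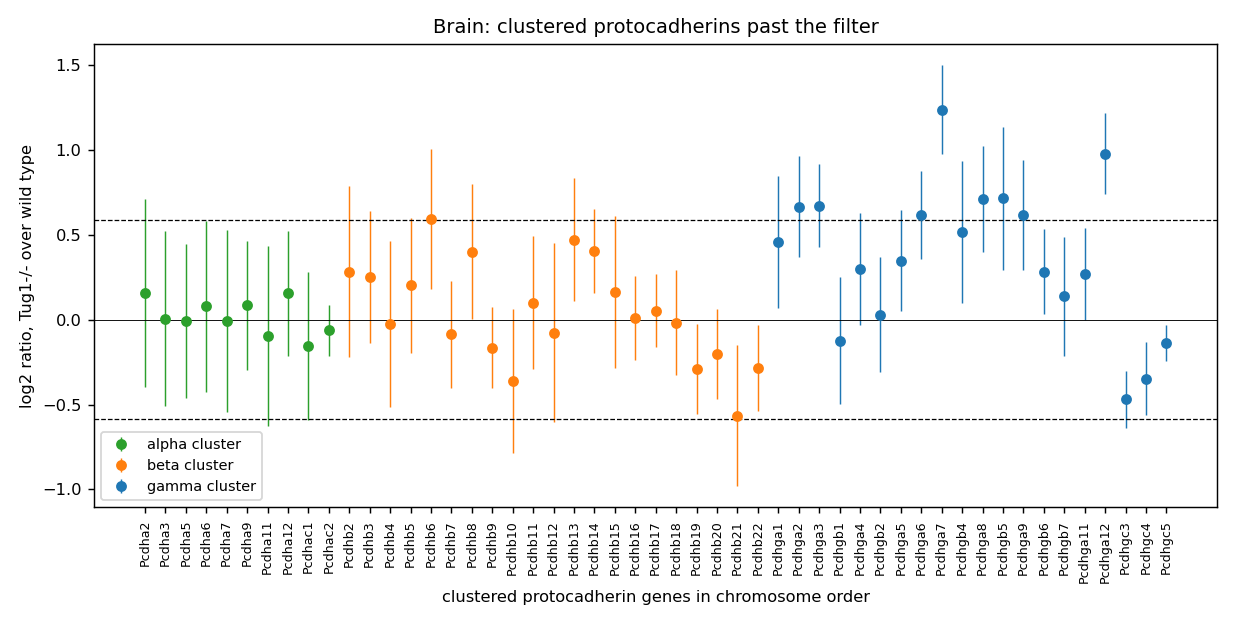
Log2 ratio of Tug1-/- over wild-type brain for the 51 clustered protocadherin genes past the filter, in chromosome order, with 95% counting intervals for 1 library per genotype and dashed lines at 1.5-fold. The alpha genes (green) lie near 0, the beta genes (orange) scatter on both sides, and the gamma genes (blue) lie mostly above 0 apart from the 3 C types at the right end.

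The largest positive ratio outside the Tug1 window was that of Rps4l, annotated as a transcribed processed pseudogene and related to the gene of ribosomal protein S4. It was at 47.6 TPM in wild-type brain and 121 TPM in Tug1-/- (log2 ratio 1.35, interval 1.07 to 1.62), at chr6:148354656-148355598. Rps4x, the X-linked gene of that protein, was at 375 and 384 TPM (0.04). The authors counted uniquely mapped reads, so reads that match both genes alike would be left out, and the 2 levels are uncertain. The 10 genes past the filter within 1 Mb of Rps4l ranged from -0.11 to 0.26, with none past the limit, among them Ergic2 at 25.6 and 25.8 TPM.

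Further genes with the largest positive ratios had varied roles. Gm14403, a gene of a zinc finger cluster on chromosome 2, was at 11.7 TPM in wild-type brain and 22.7 TPM in Tug1-/- (log2 ratio 0.95). Greb1l, a relative of the estrogen-induced gene Greb1, was at 3.66 and 6.50 TPM (0.81). Rec8, a cohesin subunit of meiosis, was at 6.00 and 10.5 TPM (0.80). Krt10, a keratin of the upper epidermis, was at 12.9 and 21.9 TPM (0.76). The list of the 12 highest was completed by the gamma genes Pcdhga8 (0.71) and Pcdhgb5 and by the noncoding RNAs Gm40518 (0.74, mean normalized count 52.8) and AC161763.1. The latter spans under 200 bases and was at 603 and 983 TPM (0.70).

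Of the 12 lowest ratios outside the window, 6 were of pseudogenes. Gm6472, a transcribed processed pseudogene on the X chromosome, was at 37.6 TPM in wild-type brain and 4.53 TPM in Tug1-/- (log2 ratio -3.03, interval -3.70 to -2.36). Gm15487, a processed pseudogene on chromosome 6, was at 149 and 23.3 TPM (-2.67, interval -3.37 to -1.98). Gm13456 (-1.46), Vcp-rs (-1.004), Gm11223 (-0.97) and Gm14303 (-0.93) are processed pseudogenes as well. Leaving out 11 that the annotation classes as transcribed, Gm6472 and Rps4l among them, 27 of the genes compared were processed pseudogenes, of which 6, these 5 and Gm6560, were 1.5-fold or more lower (22.2%, beside 0.246% of all genes) and none higher. Their median log2 ratio was -0.24, and their median mean normalized count was 95.4, against 586 for protein-coding genes. Reads of a processed pseudogene and its parent gene are easily confused, so these levels are uncertain.

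The remaining low genes included 2 that overlap on chromosome 11. The antisense RNA A830036E02Rik was at 19.1 and 5.75 TPM (log2 ratio -1.72, interval -1.94 to -1.49), and Krt12, a keratin of the corneal epithelium whose span it overlaps on the opposite strand, was at 10.4 and 4.69 TPM (-1.13). Gm9843 (-1.31) and the long noncoding RNA Gm26809 (-1.06) had mean normalized counts under 60. Hddc3, a phosphohydrolase gene, was at 9.74 and 5.27 TPM (-0.87), and the ATP-binding cassette transporter gene Abca6 was at 3.14 and 1.67 TPM (-0.87).

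The cell makeup of the samples was described with lists of marker genes. In bulk RNA, fewer cells of a type and less RNA per cell cannot be told apart. Neurons, astrocytes, oligodendrocytes and their precursors had medians close to that of all genes. The median log2 ratio was -0.04 for 15 general neuronal genes, 0.02 for 10 genes of excitatory neurons, 0.05 for 12 of inhibitory neurons, -0.06 for 12 of astrocytes, -0.07 for 15 of myelin and 0.04 for 8 of oligodendrocyte precursors. Some of these lists were 1-sided. Of the 12 inhibitory genes 11 lay above the median of all genes and 3 above the 95th percentile. Of the 15 myelin genes 12 lay below the median, 2 below the 5th percentile and 1 above the 95th. By construction 5.00% of all genes lie beyond each percentile. Sst, the peptide that marks a class of inhibitory neurons, was at 636 TPM in wild-type brain and 718 TPM in Tug1-/- (0.18).

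Markers of vessels and their coverings had medians below that of all genes. Of 13 endothelial genes, 11 lay below the median of all genes and 6 below the 5th percentile, under which 5.00% of genes lie by construction. The list median was -0.20. Kdr, a receptor for vascular endothelial growth factor, was at 5.12 TPM in wild-type brain and 3.88 TPM in Tug1-/- (-0.39), and the tight-junction gene Cldn5 was at 55.7 and 47.6 TPM (-0.22). Of 8 genes of pericytes and smooth muscle, 5 lay below the 5th percentile and the median was -0.26. Myh11, the smooth muscle myosin heavy chain, was at 6.91 and 4.67 TPM (-0.55), and Rgs5, a pericyte gene, at 104 and 86.8 TPM (-0.26). Among 11 genes of fibroblasts and meninges 5 lay below the 5th percentile (median -0.16), with the transporter Slc22a6 at 6.56 and 4.41 TPM (-0.56). No gene of these 3 lists was past 1.5-fold.

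Other small lists leaned in either direction. All 13 microglial genes lay above the median of all genes, with a list median of 0.08, and Aif1, which encodes IBA1, was at 8.41 and 10.8 TPM (0.36). The choroid plexus list had a median of -0.12 over 12 genes, with its most abundant gene Ttr (transthyretin) at 2128 and 2032 TPM. Within that list Tmem72, at 2.38 and 3.63 TPM, was past the limit on the higher side. Markers of single regions also differed slightly. The 17 cerebellar genes had a median of -0.15 and 15 lay below the median of all genes, with the granule cell receptor subunit Gabra6 at 187 and 152 TPM (-0.30). The 14 striatal genes had a median of 0.10 and 13 lay above it, with the dopamine receptor gene Drd1 at 41.1 and 44.2 TPM (0.11). The part of dissection or cell makeup in the ratios of other genes was not tested.

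**Figure D4:**
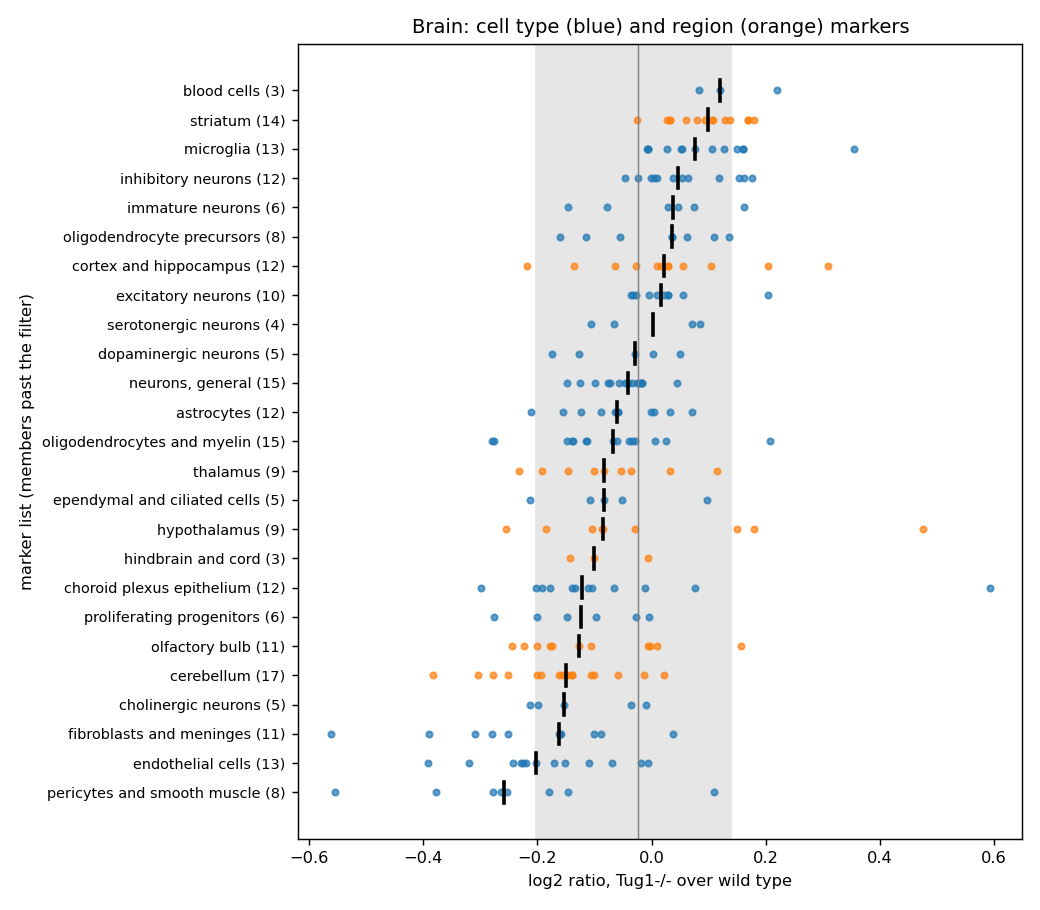
Log2 ratio of Tug1-/- over wild-type brain for the members past the filter of each cell type (blue) and region (orange) list, 1 point per gene, with the list median as a black bar. The grey band spans the 5th to the 95th percentile of all brain genes (-0.20 to 0.14) and the line their median. Pericyte, endothelial and fibroblast lists sit lowest, striatum and microglia among the highest, and Tmem72 is the point past the 1.5-fold limit.

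Lists of neuronal function were compared by their medians and outlying members. Over 17 ionotropic glutamate receptor genes the median log2 ratio was -0.04 and the range -0.14 to 0.11. Over 22 genes of synaptic vesicles and release the median was -0.03. Of 14 GABA-A receptor subunits, Gabra2 had the lowest ratio, at 41.9 TPM in wild-type brain and 30.3 TPM in Tug1-/- (-0.47). The 20 neuropeptide genes had a median of 0.04, with 7 above the 95th percentile and 1 below the 5th, and Hcrt, the precursor of the wake-promoting orexins, was at 15.3 and 21.3 TPM (0.48). The 22 immediate early genes, which respond to neuronal activity, had a median of -0.14, with 7 below the 5th percentile and 1 above the 95th. By construction 5.00% of all genes lie beyond each of these percentiles. The lowest was Npas4, an activity-dependent transcription factor, at 14.6 and 10.3 TPM (-0.50), and Arc was at 185 and 147 TPM (-0.33).

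Of 76 cytosolic ribosomal protein genes, 72 lay above the median of all genes, with a list median of 0.07 and 14 above the 95th percentile. Of 37 complex I genes of the respiratory chain, 35 lay above it (median 0.07). For 21 genes of endoplasmic reticulum stress 19 lay below it (median -0.12), with the chaperone Calr at 449 and 396 TPM (-0.18). Ppargc1a, which encodes a coactivator of mitochondrial genes, was at 44.5 and 40.2 TPM (-0.15). Of 13 glucocorticoid-induced genes, the lipid droplet gene Plin4 was past 1.5-fold, at 5.12 and 2.97 TPM (-0.76), and Pdk4, a kinase that restrains pyruvate oxidation, was at 17.6 and 25.4 TPM (0.53). The 12 interferon-stimulated genes ranged from -0.40 (Xaf1) to 0.48 (Ifit3, 16.3 and 22.9 TPM).

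The medians of the lists not yet given stayed between -0.15 and 0.12. Among cell types, cholinergic neurons had the lowest (-0.15, 5 genes), with the choline transporter gene Slc5a7 at 13.8 and 11.9 TPM, and blood cells the highest (0.12, 3 genes), with the haemoglobin gene Hbb-bs at 161 and 187 TPM. Among regions, the olfactory bulb list had a median of -0.13 over 11 genes, hypothalamus -0.09 over 9, thalamus -0.08 over 9, and cortex and hippocampus 0.02 over 12, where Crym, which encodes a thyroid hormone-binding protein, was at 59.8 and 74.0 TPM (0.31). The 26 Polycomb genes, which encode a repressive chromatin complex, had a median of -0.05, with the highest ratio at Cbx8 (10.4 and 11.5 TPM). The 14 other abundant long noncoding RNAs had a median of -0.04, and Malat1 was at 179 and 194 TPM (0.12). The 19 clock genes had a median of -0.06, and the 8 mitochondrially encoded mRNAs one of 0.03. Of all 57 lists 55 had members past the filter, the exceptions being pituitary and photoreceptors with pineal.

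The last question was how the brain values stood beside those of the other tissues, which came from other mice and were normalized separately. Levels are compared here as ratios within a tissue. Tug1 was lower in each of the 7 other tissues, from -8.39 to -5.35, and brain, at -7.50, lay within that range. Rnf185 was above 0 in all 7, from 0.81 to 1.12, with brain at 1.03. Selenom ranged from 0.51 in spleen to 1.09 in heart, with brain also at 1.09. Inpp5j reached 1 TPM in 4 other tissues, where it ranged from 0.12 in testes to 1.28 in heart. Its average level was 95.8 TPM in brain and 13.8 TPM in eyes, the next highest.

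Smtn and Morc2a varied more. Smtn ranged from -0.19 in spleen to 3.14 in testes, with brain at 0.48. Morc2a was below 0 in all 7 other tissues, from -3.33 in liver to -0.16 in testes, with brain at -0.83. Rps4l was above 0 in all 7, from 0.19 in testes to 3.75 in prostate. Pcdhga7 reached 1 TPM in 4 other tissues and was above 0 in each (0.19 to 1.38). Where they reached that level, Pcdhga2 was above 0 in 4 of 4 other tissues and Pcdhga1 in 3 of 3. Pcdhga8, Pcdhga9 and Pcdhga11 were above 0 in 2 of 2 each, Pcdhga3 and Pcdhga12 in 3 of 4, and Pcdhga5 in 2 of 3. Pcdhga6, at 0.61 in brain, was instead at -0.73 and -0.08 in the 2 others where it reached 1 TPM. Pcdhga4, at 0.30 in brain, lay between -0.10 and -0.03 in 3. Of the lowest genes of brain, Gm6472 lay between -0.22 and 0.23 in the other 7 tissues, and Gm13456 between -0.08 and 0.06. Krt12 and A830036E02Rik reached 1 TPM in eyes alone among the other tissues, where they were at -0.79 and -0.40. Krt10, at 0.76 in brain, lay between -0.68 and 0.08 elsewhere.

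**Figure D5:**
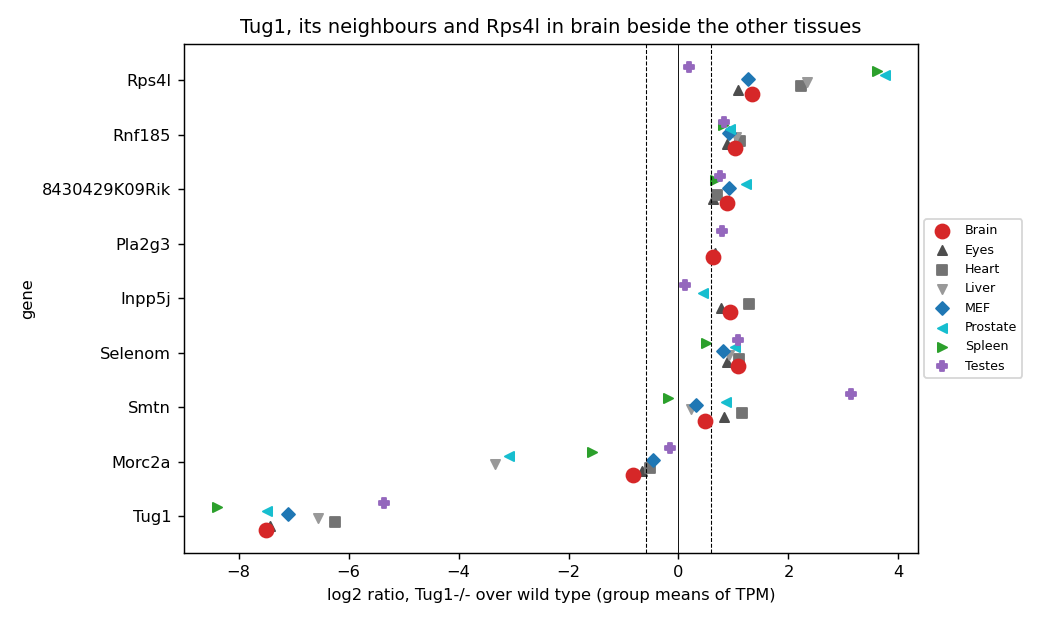
Log2 ratio of Tug1-/- over wild type for Tug1, 7 neighbours and Rps4l (rows) in brain (large red circle) and in each other tissue where the gene averaged at least 1 TPM (small symbols), with dashed lines at 1.5-fold. Rnf185 and Selenom lie close together in all tissues, whereas Smtn, Morc2a and Rps4l spread widely around the brain value.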

How the data were processed

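Reads had been aligned by the authors to GRCm38 with STAR and uniquely mapped reads counted per GENCODE gene with featureCounts. Genes that did not reach 3 reads in any replicate were dropped. The authors deposited, per gene and tissue, the mean TPM of each genotype and a mean normalized count from DESeq2, or for testes the mean TPM without that count. How these steps were run for the re-analysed brain libraries, and whether by strand, is not given in the sources used here. The tables also hold the authors' own fold changes, standard errors, test statistics and p-values, which were not used. Since group means alone were deposited, the depth of each library is unknown and no test was run.

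From the deposited means, log2 ratios were computed with a pseudocount of 0.1 TPM for genes averaging at least 1 TPM with a mean normalized count of at least 50. Differences were read at 1.5-fold. Genes were joined by identifier, since 23 brain rows repeat a gene symbol. Named genes were Tug1, window genes past a log2 ratio of 0.32 and the nearest on each side, the 12 highest and 12 lowest ratios elsewhere, protocadherin clusters, the Rps4l locus, and extreme or abundant members of 57 lists. The members, lists and limits were chosen with earlier results of these data known. The calculation was tested on simulated data. Python 3.11.15 was used, with numpy 2.4.6, pandas 2.3.3 and matplotlib 3.10.9. Alternatives changed the pseudocount, filter, scaling, limit and window.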

Additional observations from a re-analysis of the deposited data

How the results depend on the processing

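Counts at the 1.5-fold limit (26 genes higher and 32 lower, 5 and 1 in the Tug1 window) depended on the filter and the limit. With a pseudocount of 1 TPM 16 genes were higher, 4 of them in the window, where Pla2g3 (0.54) was no longer past the limit. With no filter 896 were higher and 2103 lower, and 6 window genes were lower. With an average of at least 5 TPM 21 were lower. With a mean normalized count of at least 200, 11 were higher and 8 lower, and 3 window genes were higher. At a limit of 0.32 on the log2 scale 88 were higher and 185 lower, and at 2-fold 5 and 9, with 2 window genes higher and 0 lower. The remaining recomputed counts stayed within 1.5 times the value reported, including those after centring on the median, rescaling without mitochondrially encoded genes, and windows of 0.5 and 2 Mb. Among Tug1, the 28 window genes and the 24 genes of largest ratio elsewhere, the genes for which ratios were recomputed, none past 1.5-fold changed sign, and the ratio of Tug1 moved beyond its counting interval, to -5.58 with a pseudocount of 1 TPM. Without the filter the medians of 4 lists moved by more than 0.1: blood cells, hindbrain and cord, lens and cornea, and keratins. Centring adds 0.02 to every ratio. No paired analysis was possible because the table holds group means only, and for the same reason no replicate could be left out. Counting intervals are wide for genes near the filter.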

Other observations

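Some genes past 1.5-fold in brain had neighbours with a ratio on the same side. These groups were chosen after their values were seen. Over the genes past the filter within 1 Mb, the centre left out, the median log2 ratio was 0.08 around Gm14403 (12 genes), -0.01 around Greb1l (9), -0.06 around Ccl28 (8), -0.17 around Herc6 (8, all below 0) and 0.03 around Krt12 (23). Around Gm14403 on chromosome 2, the zinc finger genes Zfp970 (15.4 TPM in wild-type brain and 22.03 TPM in Tug1-/-, log2 ratio 0.52) and Gm14295 (10.2 and 13.7 TPM, 0.41) lay above 0, and so did Gm14418, which was below the filter (2.71 and 6.48 TPM). Such genes resemble each other, so reads that match several of them alike may be left out, and their levels are uncertain. Near Greb1l on chromosome 18, Colec12 was at -0.20 and Rock1 at -0.10, while the cohesin acetyltransferase gene Esco1 was at 26.5 and 36.6 TPM (0.46) and Abhd3, which encodes a phospholipase, at 154 and 184 TPM (0.25). The chemokine gene Ccl28 on chromosome 13 was at 2.63 and 4.13 TPM (0.63), with Tmem267 136 kb away at 9.69 and 14.2 TPM (0.55), and the other 7 genes around it lay below 0. On chromosome 6, Herc6, a ligase gene of the interferon response, was at 4.07 and 2.27 TPM (-0.82), and 111 kb from it Pyurf was at 20.4 and 14.3 TPM (-0.51) and beside that Lancl2 at 115 and 90.9 TPM (-0.33). In the keratin cluster of chromosome 11, Krt20 (4.802 and 1.63 TPM) and Krt25 (3.04 and 1.57 TPM) were below the filter and lay on the same side as Krt12, whereas Krt10, 32.9 kb from Krt12, lay on the other side. Of an added list of 12 keratins of that cluster 10 were found and 3 passed the filter. Their median was -0.10, the value of Krt222. Krt9, 771 kb from Krt12 and not on that list, also passed the filter, at 9.43 and 10.6 TPM (0.17).

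On chromosome 18, 11 of 379 genes were past 1.5-fold, all higher (2.90%, beside 0.200% of all genes). Of these 11, 10 lie in the protocadherin locus (9 clustered protocadherins and 3222401L13Rik) and the other is Greb1l. On chromosome 11, 7 of 1024 genes were higher and 6 lower (1.27% together, beside 0.200% and 0.246% of all genes). Of these 13, 7 are Tug1 and genes of its window.

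Among the remaining lower genes, Omp, the marker of mature olfactory sensory neurons, was at 19.7 TPM in wild-type brain and 11.5 TPM in Tug1-/- (log2 ratio -0.77). Of a list of 12 olfactory sensory genes added after the values were seen, 8 passed the filter with a median of -0.07. Of these 8, 2 were 1.5-fold or more lower, beside 0.246% of all genes. They were Omp and Stoml3, which was at 5.98 and 3.79 TPM (-0.64). Because the list followed the values, nothing is read from this count. Gnal, the most abundant, was at 195 and 187 TPM (-0.06). Bfsp2, a filament protein of the lens, was at 11.04 and 6.98 TPM (-0.65), while in an added list of lens and cornea genes the crystallin Crybb1 was at 9.48 and 9.78 TPM, and Krt12 and Bfsp2 alone passed the filter. Myoc, which encodes myocilin, was at 38.3 and 22.4 TPM (-0.77). Pde1c, a calmodulin-dependent phosphodiesterase gene, was at 7.77 and 5.01 TPM (-0.62), and Dis3l, a ribonuclease of the cytoplasmic exosome, at 26.05 and 16.99 TPM (-0.61). The ribosomal RNA CT010467.1, the 1 gene of its class past the filter, was at 686 and 427 TPM (-0.69). How ribosomal RNA was removed from the brain libraries is not given in the sources used here. The part of this step in the ratio was not tested. Of the genes past the limit, Tug1 included, CT010467.1 had the highest mean normalized count, 7079.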
